A study of Mus musculus with 36 samples.

Results

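The genes described are 8 paternally expressed imprinted genes of the mouse: Peg10, Sgce, Mest, Impact, Inpp5f, Rasgrf1, Zdbf2 and Slc38a4. They were named by symbol, located by their RefSeq coordinates in mm10 (GRCm38.p6), and examined over the gene and 5 kb on either side, called the window here. All 8 were found among 21883 protein-coding genes on the named chromosomes. The windows held 23 of 49155 regions of tagged H4K91R, 13 of 14314 of H4K91Q, 24 of 69158 of H4WT and 1 of 3007 of the empty vector.

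The lists are HA ChIP-seq peak lists from otherwise unmodified mouse embryonic stem cells (mESCs). The cells stably carried a PiggyBAC transgene for histone H4 with a 3HA tag, in 1 of 3 forms: H4K91R, where arginine stands at lysine 91, H4K91Q, where glutamine stands there, and the wild type H4WT. The control line carried a PiggyBAC empty vector and so makes no tagged histone. The labels name neither the promoter of the transgene nor a clone, and say nothing of the cells' own H4 genes. The series has 36 samples, and 4 pulldowns entered the work, with 1 library per group. No difference between lists therefore has a replicate check, no p-value is given, and the lists give no read numbers, so depth is unknown.

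An imprinted gene is transcribed from the copy of one parent. The choice is set by DNA methylation laid down in the egg or the sperm at a control region, which the zinc finger protein ZFP57 and the corepressor KAP1 protect in the early embryo and in mESCs. In the mouse, control regions methylated on the maternal copy are known at Peg10 and Sgce, at Mest, at Impact and inside Inpp5f. Rasgrf1 has a control region methylated on the paternal copy, and Slc38a4 is known for imprinting that depends on histone H3 lysine 27 methylation from the egg. Zdbf2 is not assigned to either kind here. Lysine 91 of H4 lies in the globular core where H4 meets H2B. Arginine keeps the positive charge of lysine and glutamine removes it. The lists hold neither DNA methylation nor the parent of origin of the reads, so a region on one copy and a region on both cannot be told apart.

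The RefSeq promoter table (GRCm38.p6, 250 bases before to 50 after an annotated start) holds 10 promoters of 5 of the 8 genes. Of these promoters 5 are printed, as examples of starts with and without a tagged histone. Peg10, Sgce and Impact have no promoter in the table. Capitals mark TGCCGC or its reverse complement GCGGCA, the letters that ZFP57 reads when methylated, and positions count from the annotated start. Both strands were searched. A match is only a match of letters.
Mest downstream start, chr6:30737800-30738099, plus strand: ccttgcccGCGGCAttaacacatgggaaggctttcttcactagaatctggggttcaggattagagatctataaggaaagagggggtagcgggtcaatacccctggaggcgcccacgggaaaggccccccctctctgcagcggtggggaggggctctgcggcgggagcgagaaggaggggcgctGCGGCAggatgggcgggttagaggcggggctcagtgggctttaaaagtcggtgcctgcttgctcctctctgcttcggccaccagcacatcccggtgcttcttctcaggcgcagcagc
Mest upstream start, chr6:30733256-30733555, plus strand: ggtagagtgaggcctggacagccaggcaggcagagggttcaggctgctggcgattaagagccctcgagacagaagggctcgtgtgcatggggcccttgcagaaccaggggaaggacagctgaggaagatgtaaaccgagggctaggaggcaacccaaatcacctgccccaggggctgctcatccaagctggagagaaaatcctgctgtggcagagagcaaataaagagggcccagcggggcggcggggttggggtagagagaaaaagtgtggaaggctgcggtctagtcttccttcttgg
Inpp5f, chr7:128611115-128611414, plus strand: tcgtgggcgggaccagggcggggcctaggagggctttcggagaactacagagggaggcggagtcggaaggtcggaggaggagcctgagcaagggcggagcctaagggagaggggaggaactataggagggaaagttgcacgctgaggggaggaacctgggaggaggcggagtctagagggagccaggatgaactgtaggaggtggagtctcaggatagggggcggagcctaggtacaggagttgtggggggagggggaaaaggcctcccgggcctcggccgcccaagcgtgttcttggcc
Zdbf2 downstream start, chr1:63273019-63273318, plus strand: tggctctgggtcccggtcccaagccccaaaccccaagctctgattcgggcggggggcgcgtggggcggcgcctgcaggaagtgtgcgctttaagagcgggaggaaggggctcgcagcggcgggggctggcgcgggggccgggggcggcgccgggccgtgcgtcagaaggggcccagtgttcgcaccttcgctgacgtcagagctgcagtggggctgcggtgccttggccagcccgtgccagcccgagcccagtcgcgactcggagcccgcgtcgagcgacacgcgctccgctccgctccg
Zdbf2 upstream start, chr1:63200108-63200407, plus strand: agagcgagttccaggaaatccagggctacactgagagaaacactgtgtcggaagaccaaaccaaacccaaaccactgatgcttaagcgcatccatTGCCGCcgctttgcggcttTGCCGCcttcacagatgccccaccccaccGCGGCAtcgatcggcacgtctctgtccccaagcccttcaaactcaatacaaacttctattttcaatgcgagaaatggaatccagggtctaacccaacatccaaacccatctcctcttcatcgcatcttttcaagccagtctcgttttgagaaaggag

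The Mest downstream promoter carried regions of H4K91R, H4K91Q and H4WT, and its sequence has 2 matches, at -242 and -67, with 17 CG dinucleotides. The Mest upstream promoter, at the other annotated start, carried an H4K91R region alone and has no match and 8 CG dinucleotides. The Inpp5f and the Zdbf2 downstream promoters each carried H4K91R and H4WT regions without H4K91Q and have no match, with 15 and 38 CG dinucleotides. The Zdbf2 upstream promoter has 3 matches, at -155, -136 and -107, and carried no region of any list. Of the 5 printed starts, the letters and a region thus met at 1. The Rasgrf1 promoter, not printed, carried H4K91R and H4WT regions without H4K91Q and has no match, with 26 CG dinucleotides. The letters stood in 22.7% of the promoters with an H4K91R region, 21.8% of those with an H4K91Q region and 23% of those with an H4WT region, against 11.6% of all 32851 promoters in the table. The median number of CG dinucleotides moved with these shares in part, at 24 in the H4K91R set, 9 in the H4K91Q set and 24 in the H4WT set, against 7 in all promoters, and its part in them was not tested. H4K91Q regions lay on 0.502% of all promoters, against 13.7% for H4K91R and 31% for H4WT.

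H4K91R regions lay in the windows of 8 of the 8 genes, H4K91Q regions in 5, H4WT regions in 8 and an empty-vector region in 1. Among all protein-coding genes the same call was met by 58.2% for H4K91R, 9.55% for H4K91Q, 71.6% for H4WT and 8.96% for the empty vector. The genes with H4K91Q were Peg10, Sgce, Mest, Impact and Inpp5f. Those without were Rasgrf1, Zdbf2 and Slc38a4. Long windows meet more regions, and the 8 windows run from 23.2 kb at Peg10 to 127 kb at Rasgrf1. H4K91Q was present at Peg10, Mest and Impact, 3 of 3 with windows of 20 to 50 kb, against 7.78% of all genes in that class. It was present at Sgce and Inpp5f and not at Slc38a4, with windows of 50 to 100 kb, against 13.6% in that class. It was present at neither Rasgrf1 nor Zdbf2, with windows over 100 kb, against 26.8% in that class. Over the 3 classes, from short to long, H4K91R was met by 60.5%, 69.5% and 81.5% of genes and H4WT by 76.1%, 84.6% and 91.9%. Most genes of each class thus had a region of these lists. The presence at all 8 genes stands nearer to the H4WT shares than to the H4K91R shares, and the difference was not tested. Regions of all 3 tagged histones lay in 5 of the 8 windows, against 7.91% of all genes.

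**Figure D1:**
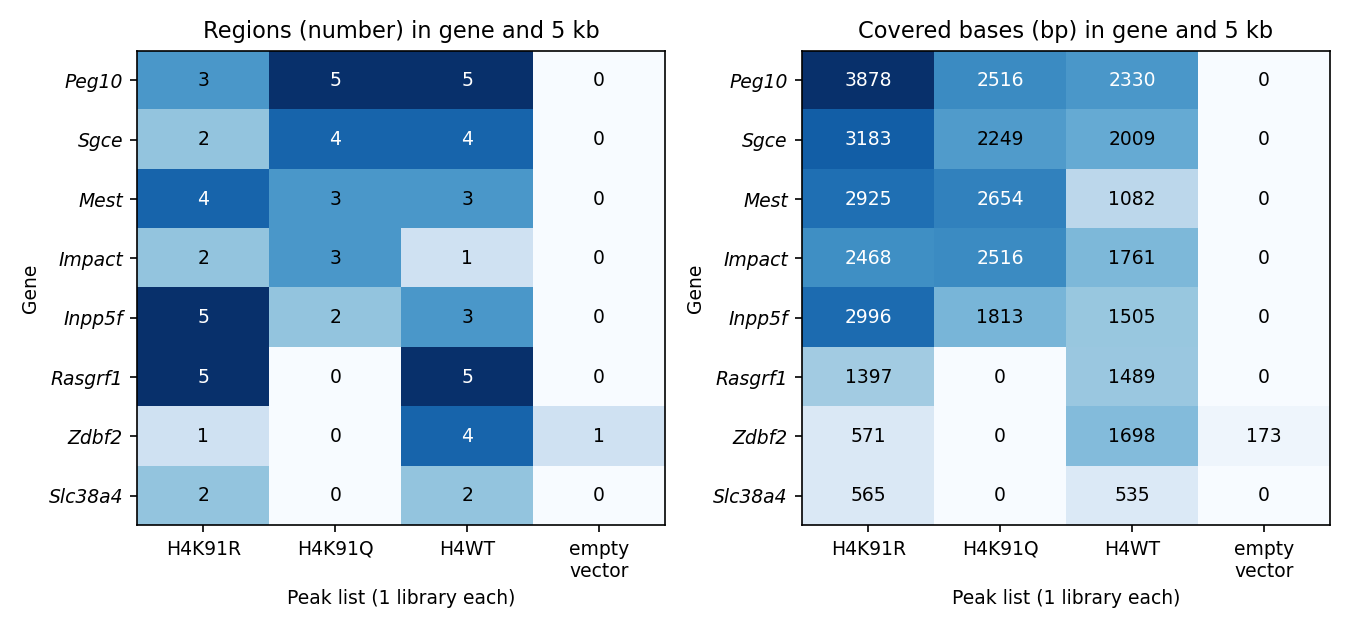
Number of regions (left) and bases covered by regions in bp (right) in the window of each gene (rows) for each peak list (columns, 1 library each). The 5 upper genes have 2 to 5 H4K91Q regions each, and Rasgrf1, Zdbf2 and Slc38a4 have 0.

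Each of these 5 genes had a wide region of both mutants among narrower ones. H4K91R and H4K91Q each had a region of at least 1 kb in the windows of the same 5 genes, and H4WT had one at Impact alone. When gaps of up to 500 bp were joined within a list, H4WT reached that width at 3 genes and each mutant at 5. The share of all genes was not computed for joined regions of that width. A region of that width was met by 2.34% of all protein-coding genes for H4K91R, by 1.48% for H4K91Q and by 7.87% for H4WT. Both mutants had one at 0.717% of genes. By window length, the H4K91Q share was 1.28% at 20 to 50 kb, 2.34% at 50 to 100 kb and 3.48% over 100 kb. The width of 1 kb was chosen after the values were seen. The 5 genes are not 5 places, because Peg10 and Sgce share 1 region of each mutant, so each mutant had 4 such regions. The H4K91R regions in the windows were 215 to 2934 bp wide with a median of 353 bp. The H4K91Q regions were 212 to 2167 bp wide with a median of 273 bp, against 189 to 1761 bp with a median of 299.5 bp for H4WT. Over the whole lists the median widths were 271 bp for H4K91R, 317 bp for H4K91Q and 267 bp for H4WT, so the median H4K91Q region of these genes was narrower than that of its list. Width also moves with depth, and its part in these values was not tested.

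**Figure D2:**
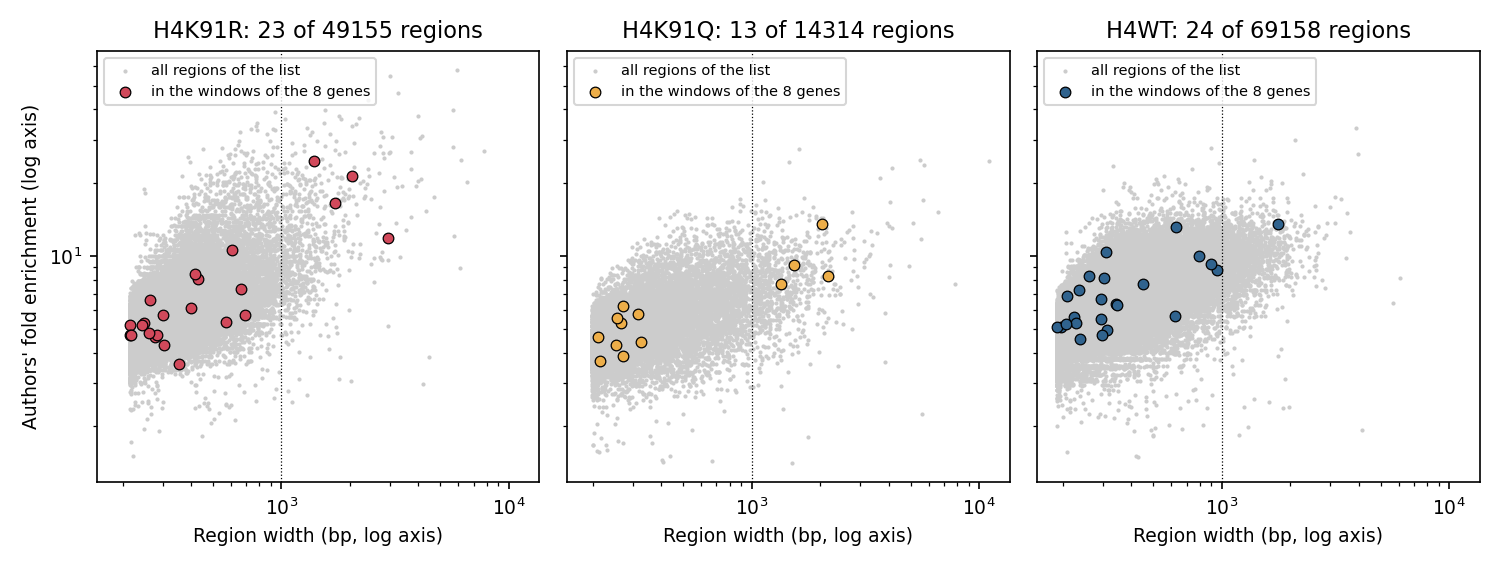
Width (x axis, bp, log scale) against the authors' fold enrichment (y axis, log scale) for every region of each tagged list in grey, with the regions in the windows of the 8 genes in colour. The dotted line marks 1 kb, beyond which lie 4 H4K91R, 4 H4K91Q and 1 H4WT region of these genes.

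Each wide H4K91Q region stood in a row of 2 to 4 H4K91Q regions with gaps of at most 500 bp, called a stretch here. The 4 stretches ran over 2626 bp across the facing ends of Sgce and Peg10, 3068 bp in Mest, 2599 bp in Impact and 2190 bp in Inpp5f. Of all H4K91Q stretches 4.47% were at least 2 kb long, and 0.941% of protein-coding genes had one in the window. H4K91R regions covered 100% of the stretch at Peg10, 65.9% at Mest, 95% at Impact and 82.5% at Inpp5f. H4WT regions covered 61.3% at Peg10, 28% at Mest, 67.8% at Impact and 36.3% at Inpp5f. No empty-vector region lay in any of the 4. H4WT covered less of each stretch than H4K91R did. The stretches are drawn from H4K91Q regions, of which 54% overlapped H4K91R and 19.5% overlapped H4WT over the whole list, so that order is the one of the list as a whole.

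**Figure D3:**
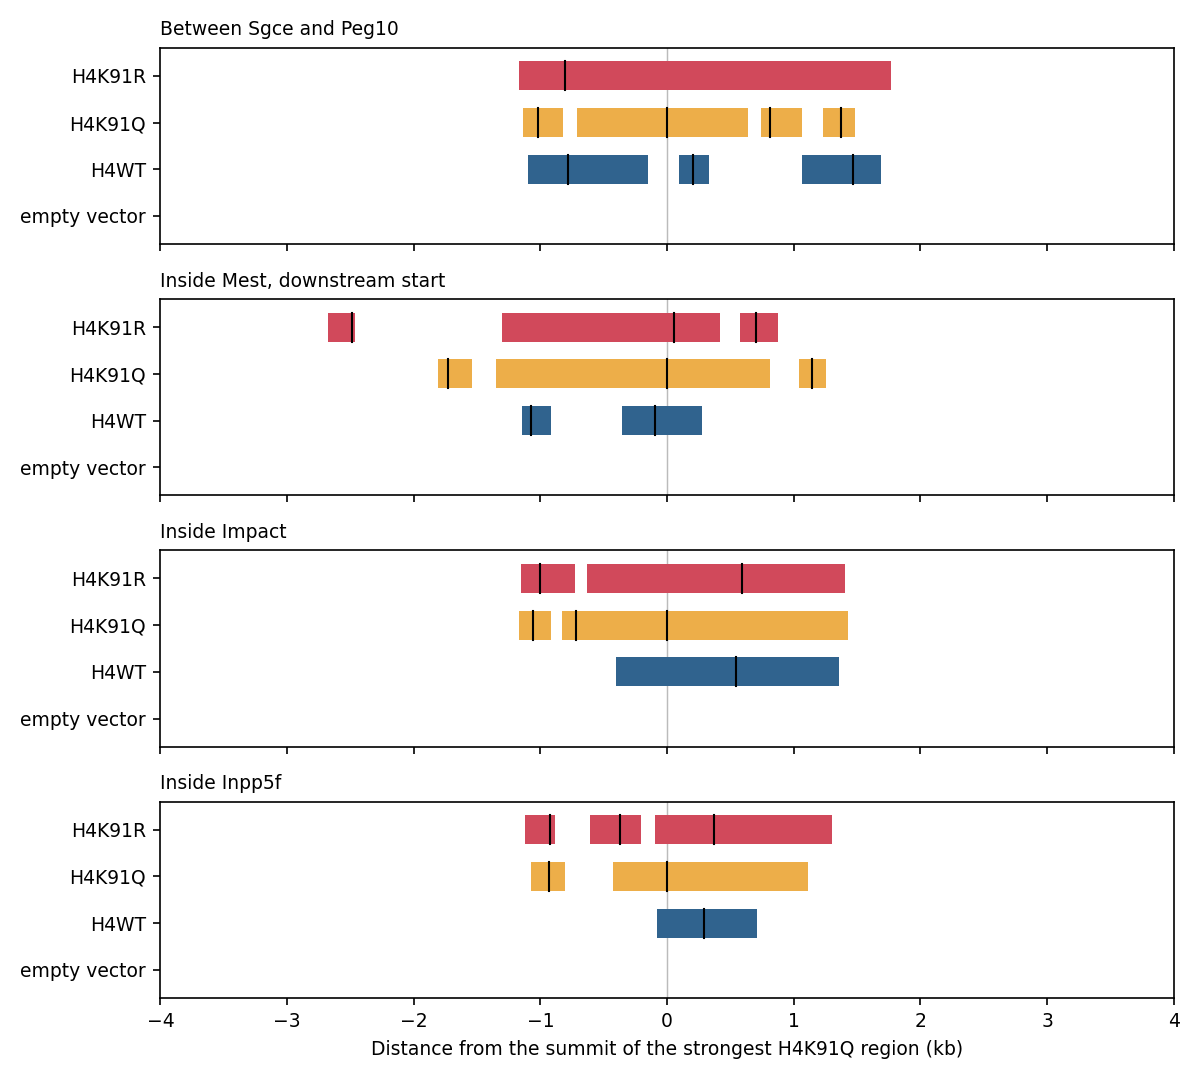
Regions of each list around the 4 long H4K91Q stretches, as distance in kb from the summit of the strongest H4K91Q region. Bars are regions, black ticks are summits, and rows are lists with 1 library each. The panel headed with Sgce and Peg10 shows the stretch across their facing ends, which reaches into both genes. In each panel H4K91R and H4K91Q spread over 2 kb or more, H4WT covers a part of the same span, and the empty-vector row is blank.

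Peg10, a gene derived from a retrotransposon and needed for the mouse placenta, and Sgce, which encodes epsilon-sarcoglycan of the dystrophin-associated complex, are transcribed away from each other. Their annotated ends on chromosome 6 face each other at 4747306 (Peg10) and 4747204 (Sgce). H4K91R had 1 region across both ends, from 4746574 to 4749507, with an authors' fold of 11.9, above 97.8% of its list. At 2934 bp it was among the widest 0.0712% of H4K91R regions. H4K91Q had 4 regions there, and the main one, from 4747032 to 4748384, had a fold of 7.64, above 89.5% of its list. H4WT had 3 regions there, led by 4746640 to 4747592 with a fold of 8.75, above 89% of its list. Folds are the authors' ratio to the background at the summit and are ranked here only within a list. The H4K91R summit at 4746935 lay inside Sgce near its annotated end, the H4K91Q summit at 4747742 lay 436 bp inside Peg10, and the H4WT summit at 4746959 lay beside that of H4K91R.

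A second place shared by the 3 tagged histones lay inside Peg10, about the middle of the gene. H4K91R had a region of 667 bp there with a fold of 7.34, H4K91Q one of 267 bp (4755236 to 4755502) with a fold of 5.29, and H4WT one of 310 bp with a fold of 10.4. The order within the lists differed, since the H4K91R region exceeded 86.8% of its list, the H4K91Q region 55.1% and the H4WT region 95.9%. An H4WT region of fold 6.85 lay beyond the right end of Peg10, with its summit at a distance of 1981 bp and no mutant region on it. Deep inside Sgce, H4K91R (249 bp, fold 5.31) and H4WT (197 bp, fold 5.10) had narrow regions that did not overlap.

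Mest, also called Peg1, encodes a protein of the hydrolase fold family and has an upstream and a downstream annotated start on chromosome 6. The H4K91R region at the downstream start spanned 30736852 to 30738571 with a fold of 16.4, above 99.2% of its list. The H4K91Q region spanned 30736804 to 30738970 with a fold of 8.24, above 92.8% of its list. The H4WT region was 630 bp wide, from 30737801 to 30738430, with a fold of 13.2, above 99.4% of its list. The 3 summits lay within 160 bp of the annotated start at 30738053, at 160 bp for H4K91R, 102 bp for H4K91Q and 8 bp for H4WT. Mest was thus high in all 3 lists at the same start, with the mutant regions at 1720 and 2167 bp wider than that of H4WT. Near the upstream start H4K91R (fold 5.70, above 61.4% of its list) and H4WT (fold 5.64, above 48.1%) had regions that overlapped each other, and H4K91Q had none. Only the H4K91R region reached the start, since the H4WT region lay outside the gene with its summit 672 bp before it. The H4K91R region there was 689 bp wide, among the widest 4.39% of its list. Mir335, a microRNA gene inside Mest, and Copg2, a coatomer subunit gene that runs into the window from the right, carried no region within the window. The next H4K91Q regions lay 984196 bp to the left and 270990 bp to the right of Mest.

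Impact, on chromosome 18, encodes a protein that restrains the amino acid sensing kinase GCN2. It held the strongest H4K91Q region of the 8 genes, from 12972583 to 12974630, with a fold of 13.5 and rank 65 of the 14314 regions of that list. H4K91R had a region from 12972568 to 12974606 with a fold of 21.3, above 99.7% of its list. H4WT had 1 region from 12972798 to 12974558 with a fold of 13.5, above 99.5% of its list. The place was inside the annotated span, with the H4K91Q summit 18511 bp from the left end, and the window held no other place. The ends of that span thus carried no region of any list. The promoter table holds no start of Impact and the spans have no strand. Whether the place lies at a start of Impact was therefore not determined.

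Inpp5f encodes an inositol phosphatase, and in the mouse a short paternally expressed transcript is known to start inside the gene. All 3 tagged histones met inside the gene, where the H4K91R summit lay 77180 bp from the left end. H4K91R had its region of rank 80 in the whole list there, spanning 128687889 to 128689285 on chromosome 7. Its fold of 24.5 was the highest of its regions in the 8 windows. The H4K91Q region, from 128687559 to 128689098, had a fold of 9.17, above 95.6% of its list. The H4WT region, 794 bp wide from 128687906 to 128688699, had a fold of 9.99, above 94.6% of its list. A narrower place to the left was held by H4K91R and H4K91Q without H4WT, with folds of 5.22 and 6.24. At the annotated start, H4K91R reached a fold of 10.6 and H4WT one of 8.27 in 2 regions each, and H4K91Q had none. Mcmbp, a replication factor gene whose annotated span lies just beyond the right end, had no region in this window. In its own window of gene and 5 kb, Mcmbp had H4K91R and H4WT regions, with highest folds of 7.75 and 8.37.

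Rasgrf1, which encodes a neuronal exchange factor that activates Ras, had 5 H4K91R regions, 0 H4K91Q regions and 5 H4WT regions in its window. At the annotated start on chromosome 9, H4K91R had regions of fold 4.76, 6.61 and 8.45 and H4WT had regions of fold 4.55, 6.68 and 4.95. They met at 2 places there, and once more deep in the gene at 89994600 to 89995043. None reached 1 kb, and the widest was 418 bp. The methylated control region of Rasgrf1 is known to lie upstream of the gene, beyond the window. Regions within 40 kb of the 8 genes were therefore listed after the values had been seen. The only regions of at least 1 kb outside the windows in that range were at 1 place upstream of Rasgrf1, held by all 3 tagged histones. There H4K91R spanned 89879568 to 89881004 with a fold of 17.3, above 99.3% of its list. H4K91Q spanned 89878534 to 89880093 with a fold of 10.04, above 97.3% of its list. H4WT spanned 89879584 to 89880737 with a fold of 9.40, above 92.1% of its list. The H4K91Q region ended 29415 bp from the gene, and no empty-vector region lay within 40 kb on that side. Counted with 40 kb on either side, H4K91R and H4K91Q had a region of at least 1 kb at 6 of the 8 genes each, and H4WT at 2. The share of all protein-coding genes was not computed for that window, so these counts have no background beside them.

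Zdbf2, which encodes a zinc finger protein that promotes feeding in newborn mice, had 1 H4K91R region, 0 H4K91Q regions and 4 H4WT regions. H4K91R and H4WT met at the downstream start, shown above with 38 CG dinucleotides, more than in 95% of promoters. The H4K91R region had a fold of 5.35, above 52.2% of its list, and a width of 571 bp. The H4WT region stood higher within its list there, with a fold of 9.24, above 91.7%, and a width of 901 bp. The other 3 H4WT regions, with folds of 4.73 to 5.51, stood alone. The single empty-vector region of the 8 windows lay inside Zdbf2 on chromosome 1, spanning 63264620 to 63264792, with a fold of 5.16, and overlapped no tagged region. Gpr1, a receptor gene that overlaps the left part of Zdbf2, carried no region of any list in its own window of gene and 5 kb.

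Slc38a4 encodes an amino acid transporter of the placenta and liver. Its highest folds were the lowest of the 8 genes in the H4K91R and the H4WT list, with 2 H4K91R regions of fold 4.31 and 4.82, 0 H4K91Q regions and 2 H4WT regions of fold 5.10 and 6.31. One place was shared by H4K91R and H4WT, on chromosome 15 from 97054467 to 97054820, and the H4WT summit lay 1307 bp inside the gene from the annotated start. The 3 promoters of Slc38a4 in the table carried no region. The next H4K91Q region lay 26116 bp to the right, with a width of 206 bp and a fold of 4.33.

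**Figure D4:**
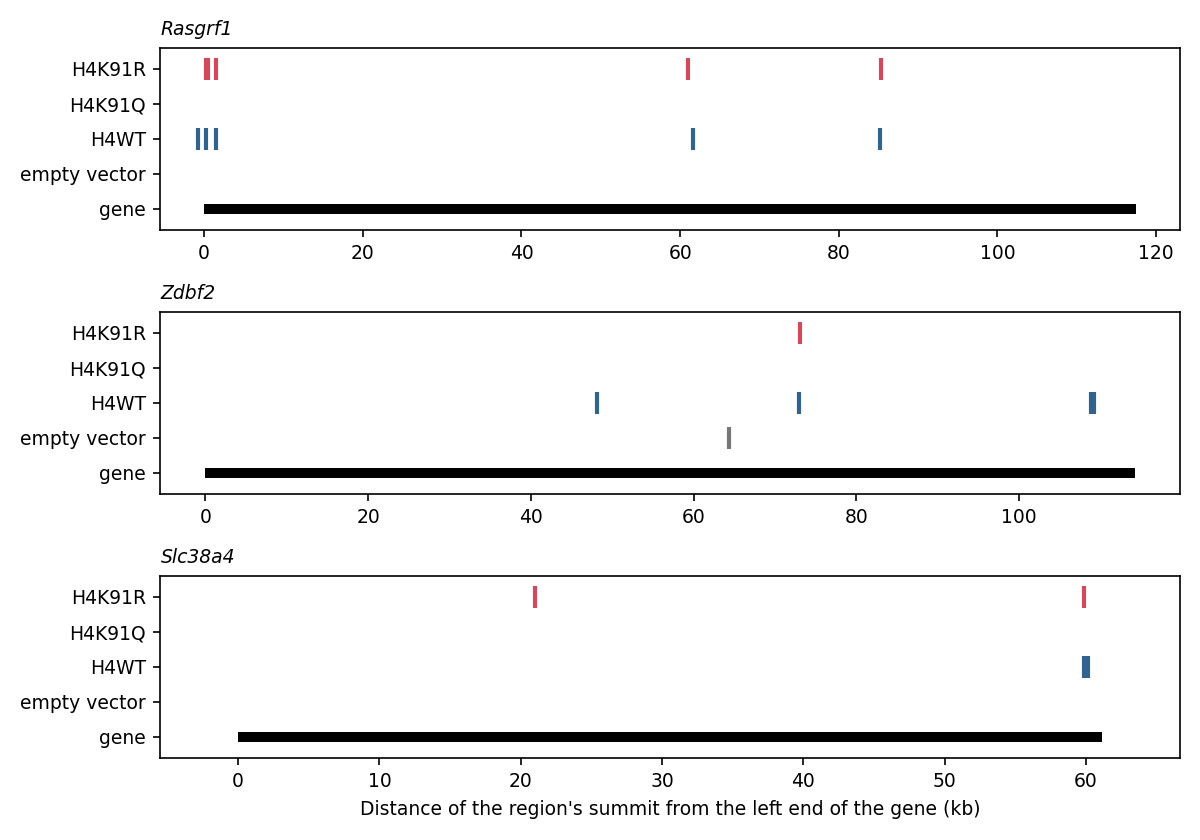
Summits of regions of each list along the windows of Rasgrf1, Zdbf2 and Slc38a4, as distance in kb from the left end of the gene (black bar). The H4K91Q row is blank for all 3 genes, and the empty vector has 1 region, inside Zdbf2.

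The windows held 30 places, each place being overlapping regions of any list. H4WT alone held 8, H4K91R with H4WT 7, H4K91R alone 6, all 3 tagged histones 5, H4K91Q alone 2, both mutants without H4WT 1 and the empty vector 1. Places of all 3 tagged histones made up 16.7% of the 30, against 2.5% of 95440 places in the genome. H4WT alone made up 26.7%, against 43.5% in the genome. Of the 13 H4K91Q regions, 11 met H4K91R (84.6%, against 54% of the whole list) and 8 met H4WT (61.5%, against 19.5%). Of the 23 H4K91R regions, 9 overlapped H4K91Q (39.1%, against 15.8% of all) and 13 overlapped H4WT (56.5%, against 55.2%), so the share with H4WT was that of the list as a whole. Of the 24 H4WT regions, 16 overlapped H4K91R (66.7%, against 38.5%) and 8 overlapped H4K91Q (33.3%, against 4.14%). None of the tagged regions overlapped an empty-vector region, against 2.56% of all H4K91R, 0.755% of all H4K91Q and 3.01% of all H4WT regions. Several of the regions lie in 1 place and are not independent of each other. When an overlap of 50% of each region was asked for, 2 places in the windows were held by all 3 tagged histones.

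Gene ends, the 1 kb on either side of the annotated ends, gave a different split of the genes. H4K91R lay at an end of 5 of the 8, H4K91Q at an end of 2, H4WT at an end of 6 and the empty vector at none. Among all protein-coding genes the shares were 38.3% for H4K91R, 1.29% for H4K91Q, 58.9% for H4WT and 1.67% for the empty vector. The 2 genes with H4K91Q at an end were Peg10 and Sgce, which share the place. At Mest, Impact and Inpp5f the H4K91Q regions lay inside the annotated gene, and at Mest at the internal start.

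Other imprinted genes and the neighbours of the 8 were counted in the same way. Both lists were chosen with earlier results of these data known, and the width of 1 kb after the values were seen. The list of other imprinted genes was written as one of paternally expressed genes, but it holds Zim1, which is expressed from the maternal copy in the mouse, and Gnas, which has transcripts from either copy. Of these 22 genes, H4K91R lay in the windows of 21, H4K91Q in 14 and H4WT in 22. Among all protein-coding genes the shares were 58.2%, 9.55% and 71.6%. Regions of at least 1 kb lay at 12 for H4K91R, 12 for H4K91Q and 7 for H4WT, against 2.34%, 1.48% and 7.87% of all genes. Both mutants had one at 11, against 0.717% of all genes, among them Nnat, Peg3, Snrpn, Kcnq1ot1, Plagl1 and Airn. Without Zim1 and Gnas, 20 genes were left, with a region of at least 1 kb at 11 for H4K91R, 11 for H4K91Q and 6 for H4WT. Of 30 neighbouring genes, H4K91R lay in the windows of 18, H4K91Q in 4 and H4WT in 29. The H4K91R count stands close to the share of all genes, 58.2%. Regions of at least 1 kb lay at 2 neighbours in each tagged list, and for both mutants these were Ppp1r9a, a synaptic scaffold gene beyond the right end of Peg10, and Slc38a1, an amino acid transporter gene near Slc38a4. The neighbours were not sorted by imprinting, so they are not a set of genes known to lack it. Some genes of these lists share a place, as Peg3 and Usp29 do. Of the 8 stem cell genes asked for, Pou5f1 and Nanog among them, H4K91R lay at 7, H4K91Q at 0 and H4WT at 7. Of 6 fibroblast genes, H4K91R lay at 3, H4K91Q at 0, H4WT at 5 and the empty vector at 1. Since H4K91Q lay at 9.55% of all genes and the empty vector at 8.96%, these short lists cannot be set apart from the background. Peak lists hold no expression, so they do not show which cells were present.

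**Figure D5:**
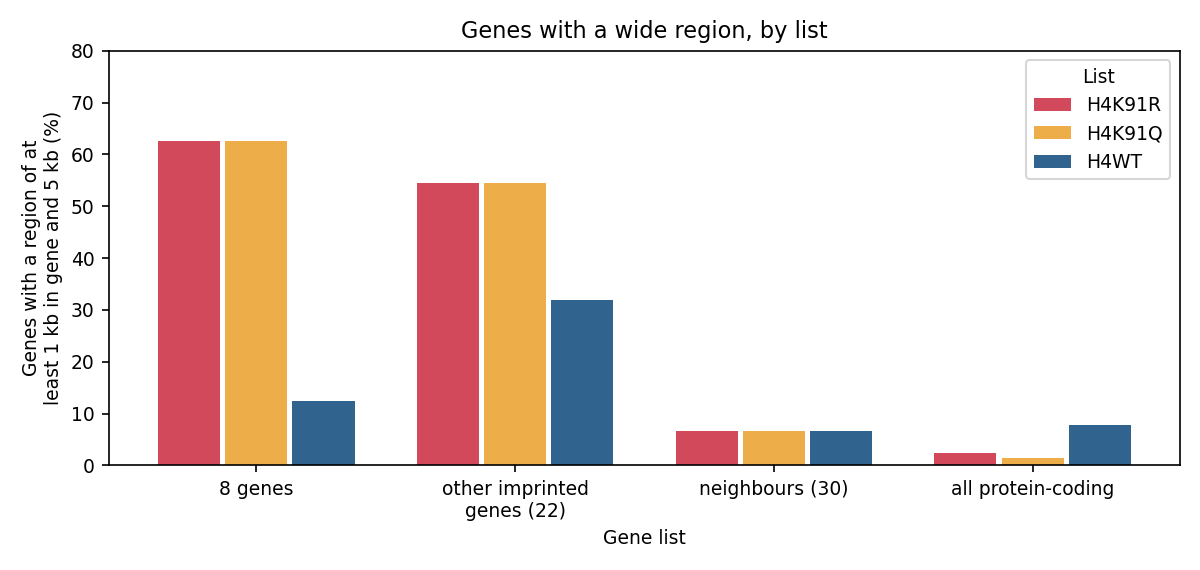
Share of genes in percent (y axis) with a region of at least 1 kb in the gene and 5 kb, for the 8 genes, 22 other imprinted genes, 30 neighbours and all protein-coding genes, by tagged list (1 library each). The mutant bars are highest for the 8 genes, at 5 genes each, of which Peg10 and Sgce share 1 region. They are near that height for the other imprinted genes, at 12 of 22 each. They are lowest for all protein-coding genes, at 2.34% and 1.48%. The H4WT bar is higher for the other imprinted genes, at 7 of 22, than for the 8 genes, at 1. The gene lists were chosen with earlier results of these data known, and the width of 1 kb after the values were seen. The neighbours were not sorted by imprinting.

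For each gene the protein-coding gene of like window length was found whose highest folds stood at the most similar percentiles in the 4 lists. The largest difference over the 4 lists was 0.285 percentile points for Mest with Lif, a cytokine gene, 0.433 for Impact with Srrm2, a splicing factor gene, and 1.48 for Peg10 with Net1. It was 1.02 for Sgce with Tnfaip8l3, 2.29 for Inpp5f with Atf7ip2, 1.36 for Rasgrf1 with Dip2c, 4.40 for Zdbf2 with Cnnm2 and 0 for Slc38a4 with Slc39a14, whose highest folds were tied. None of these 8 genes is among those listed here as imprinted, so like percentiles were also met elsewhere. Each was picked as the closest of 2700 to 7372 genes, so a near match was likely by construction. Only highest folds were compared, not widths or shared places.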

How the data were processed

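HA ChIP-seq peak lists of 4 mESC pulldowns were used: H4K91R, H4K91Q, H4WT and empty vector, grouped by sample title, 1 library each. The other 32 samples, 18 of them inputs, were not used here. Peak calling was done with MACS2 on mm10, per the submitters' processing notes, each pulldown against its own input, per the peak names. No aligner, MACS2 version, duplicate rule or q threshold is given in the sources used here. The deposited score is the −log10 q times 10, without its decimals, in 100% of peaks. The authors' fold enrichment is a ratio at the summit and was ranked only within a list. Of the other deposited columns, the −log10 p was left aside and the −log10 q was used for filtering.

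Peaks that overlapped or adjoined within a list were merged, which removed 0 peaks. A region counted where it overlapped a window by 1 bp. Coordinates are 1-based. Gene spans, without strand or exons, and promoters came from RefSeq tables of GRCm38.p6. Scripts ran in Python 3.11.15 with pandas 2.3.3, and the overlap steps were tested on simulated regions. With 1 library per group no test was made. The 8 genes, the lists of neighbours and other imprinted genes, and the rules were chosen with earlier results of these data known. The rule for named genes took all 8 genes with every region, the genes overlapping their windows, those 2 lists, and the most alike gene for each. Sequences around summits were not read, since no genome was used here. The alternatives tried were peaks with a −log10 q of at least 5, tagged lists held to 14314 peaks each by −log10 q, removal of regions on the empty vector, windows of 1 or 20 kb and an overlap of 50%. Joining gaps of up to 500 bp, windows of 40 kb, the width of 1 kb and leaving out Zim1 and Gnas were added after the data were seen.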

Additional observations from a re-analysis of the deposited data

How the results depend on the processing

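The counts were recomputed under 9 alternatives, which gave 128 values, of which 95 stayed within 1.5 times the reported count. The number of genes with a region of at least 1 kb was 5 for H4K91R and 5 for H4K91Q under each alternative that bears on it (an overlap of 50% and leaving out Zim1 and Gnas do not) other than windows of 40 kb, where both were 6. With peaks of −log10 q at least 5, the windows held 14 H4K91R regions and 0 empty-vector regions (0 genes), and the places came to 4 for H4WT with H4K91R, 2 for both mutants without H4WT, 1 for H4K91R alone and 1 for H4K91Q alone. Tagged lists of equal length gave 10 H4K91R and 8 H4WT regions, beside 13 of H4K91Q, in 13 places. Of these, 1 was H4WT with H4K91R, 0 were both mutants without H4WT, 1 was H4WT alone and 2 were H4K91R alone. H4K91R and H4WT then lay in 6 windows each. Windows of 20 kb gave 2 empty-vector regions and 2 places of both mutants without H4WT. An overlap of 50% gave 49 places, with 2 of all 3 tagged histones, 3 of both mutants without H4WT, 17 of H4WT alone, 13 of H4K91R alone and 8 of H4K91Q alone. Joining gaps of up to 500 bp gave 5 H4K91Q stretches and 3 genes with a wide H4WT region. Windows of 40 kb gave 39 H4K91R, 42 H4WT and 2 empty-vector regions, 2 genes with a wide H4WT region and 56 places. Of those, 11 were H4WT with H4K91R, 2 both mutants without H4WT, 18 H4WT alone and 13 H4K91R alone. Wider windows hold more genome, and shorter lists fewer peaks, by construction. Shares over all protein-coding genes or all places were not computed under the alternatives, so these counts have no background beside them. No paired analysis was possible because each group has 1 library. The lists give no depth, so a gene without an H4K91Q region shows only that none passed the caller there.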
